A study of Homo sapiens with 12 samples.

Results

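The respiratory chain subunit genes are the nuclear genes for the structural subunits of complexes I to IV of the mitochondrial electron transport chain and of ATP synthase, complex V. They were taken by symbol and not by any measured value. Symbols beginning NDUFA, NDUFB, NDUFC, NDUFS, NDUFV, SDHA to SDHD, UQCR, COX4 to COX8, ATP5F1, ATP5M or ATP5P were kept, and pseudogenes, read-through transcripts and assembly factors were left out. The rule gave 87 genes, and 78 of them were measured by a probe set that carries 1 gene symbol, out of 19775 genes measured in all. By complex, 33 of 37 genes were measured for complex I, 3 of 4 for complex II, 6 of 9 for complex III, 19 of 19 for complex IV and 17 of 18 for complex V. NDUFS5, NDUFS8, NDUFC2, UQCRH and UQCRHL had only probe sets shared with another symbol, and 4 other genes were not analysed here.

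RNA of 12 samples labelled PC3, an established line from prostate cancer grown in DMEM with serum, was hybridised to Affymetrix expression arrays. The labels give 4 groups of 3 arrays. In the first, Wee1 inhibitor II was given at 2.5 µM. Wee1 is the kinase that restrains CDK1 before mitosis. The second received 17-AAG, an inhibitor of the chaperone Hsp90, at 40 nM. The third received both drugs, with 17-AAG added 24 h after Wee1 inhibitor II, and the control cells received vehicle and neither drug. Cells were harvested 48 h after 17-AAG. Control replicate 2 was removed by the submitters because its signal was weak, so 2 control arrays and 3 arrays of each treated group were compared, and the number of arrays limits the precision. Nothing in the labels says that replicates were separate cultures, so a p-value here covers the variation among these samples only, and that may be technical.

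The expression of marker genes went against the PC3 label. The summed signal of 9 pigment cell genes was 31610 to 34240 with Wee1 inhibitor II, 46540 to 51920 with 17-AAG, 54700 to 55920 with both drugs and 37340 to 38650 on the 2 control arrays, against 369 on control replicate 2. CTNNA1 and STAT3, both genes that are homozygously deleted in PC3, summed to 5873 to 6278, 3533 to 3631, 3468 to 3679 and 3720 to 3811 in that order of groups, against 9.11 on control replicate 2. The 7 measured epithelial and prostate markers summed to 569 to 794 over the 11 arrays, against 6123 on control replicate 2. EPCAM and HOXB13, markers of epithelial and prostate cells, stayed at 26.2 or below and 11.3 or below on the 11 arrays. On control replicate 2 they were at 1096 and 2087. The 7 did not all move together. KRT18 made up most of the sum on the 11 arrays, at 453 to 650, against 2238 on control replicate 2. KRT8 was at 25.8 to 45.5 against 615, and KLK3 at 41.8 to 90.3 against 79.9. CDH1 and KRT19 were at 13.2 or below on all 12 arrays. All 4 groups compared are therefore called here by their drug labels and not by a cell line. In bulk RNA, fewer cells of a type and less RNA per cell cannot be told apart.

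Complexes I and II pass electrons from NADH and succinate to ubiquinone, complex III passes them to cytochrome c, and complex IV reduces oxygen. Complexes I, III and IV pump protons across the inner mitochondrial membrane, and ATP synthase uses the gradient to make ATP through its rotating ring of c subunits. A small set of subunits is encoded in mitochondrial DNA, and the rest are nuclear genes whose promoters are known targets of NRF1, of ETS factors such as GABP (NRF-2), and of YY1, with the coactivator PGC-1alpha (PPARGC1A) and the receptor ERRalpha (ESRRA) acting on many of them.

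The promoter sequences of 7 genes are shown. ATP5MC1, NDUFS3 and NDUFA8 had the 3 largest called falls with Wee1 inhibitor II, NDUFS7, NDUFA3 and NDUFA1 had the 3 largest called rises with 17-AAG, and ATP5MC2 moved opposite to ATP5MC1 although both genes code for the same mature protein. Each line gives the 250 bases before the transcription start, 5′ to 3′ on the strand of the gene, from RefSeq on GRCh38.p14. They are chr17:48892537-48892786 on the plus strand for ATP5MC1, chr12:53676084-53676333 on the minus strand for ATP5MC2 (the first of its 3 listed starts), chr11:47578824-47579073 on the plus strand for NDUFS3, chr9:122159780-122160029 on the minus strand for NDUFA8, chr19:1383657-1383906 on the plus strand for NDUFS7, chr19:54102605-54102854 on the plus strand for NDUFA3 and chrX:119871582-119871831 on the plus strand for NDUFA1. Capitals mark a match on either strand to the letters CCAAT, TGACGTCA (the cyclic AMP response element), CCGGAAG (ETS), GCGCA and GCGC with any base between them (NRF1) or AANATGGCG (YY1).
ATP5MC1: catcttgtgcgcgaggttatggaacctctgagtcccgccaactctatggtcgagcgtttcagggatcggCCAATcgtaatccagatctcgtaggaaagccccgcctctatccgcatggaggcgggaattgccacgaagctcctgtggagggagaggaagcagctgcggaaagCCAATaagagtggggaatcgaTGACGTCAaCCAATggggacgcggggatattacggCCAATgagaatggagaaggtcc
ATP5MC2: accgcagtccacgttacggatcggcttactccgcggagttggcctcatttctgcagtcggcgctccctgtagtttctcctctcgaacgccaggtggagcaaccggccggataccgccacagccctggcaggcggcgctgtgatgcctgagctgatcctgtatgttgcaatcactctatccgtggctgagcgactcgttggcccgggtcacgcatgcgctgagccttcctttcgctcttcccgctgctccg
NDUFS3: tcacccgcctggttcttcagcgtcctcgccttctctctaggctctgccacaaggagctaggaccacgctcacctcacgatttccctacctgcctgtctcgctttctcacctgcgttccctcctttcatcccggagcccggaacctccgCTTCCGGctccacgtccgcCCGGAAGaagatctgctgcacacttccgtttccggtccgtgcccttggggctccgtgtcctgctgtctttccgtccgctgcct
NDUFA8: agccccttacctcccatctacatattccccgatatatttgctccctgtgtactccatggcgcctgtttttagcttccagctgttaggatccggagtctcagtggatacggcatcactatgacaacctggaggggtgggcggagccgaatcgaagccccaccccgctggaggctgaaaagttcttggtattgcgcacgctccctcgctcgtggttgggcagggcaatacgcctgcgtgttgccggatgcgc
NDUFS7: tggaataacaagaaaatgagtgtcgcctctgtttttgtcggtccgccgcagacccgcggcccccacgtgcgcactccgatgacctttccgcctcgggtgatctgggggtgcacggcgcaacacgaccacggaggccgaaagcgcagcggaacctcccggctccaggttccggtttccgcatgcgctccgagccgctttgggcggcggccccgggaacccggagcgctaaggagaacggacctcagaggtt
NDUFA3: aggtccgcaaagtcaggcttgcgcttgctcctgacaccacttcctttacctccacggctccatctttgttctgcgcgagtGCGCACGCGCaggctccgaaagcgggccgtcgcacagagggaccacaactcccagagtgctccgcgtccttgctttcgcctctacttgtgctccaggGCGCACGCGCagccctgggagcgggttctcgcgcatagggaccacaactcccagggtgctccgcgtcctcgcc
NDUFA1: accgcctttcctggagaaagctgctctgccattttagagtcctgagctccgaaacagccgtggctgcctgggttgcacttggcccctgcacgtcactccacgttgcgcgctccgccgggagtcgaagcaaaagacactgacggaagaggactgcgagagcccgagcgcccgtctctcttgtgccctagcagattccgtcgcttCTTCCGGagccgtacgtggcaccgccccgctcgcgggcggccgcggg
ATP5MC1 held 4 CCAAT matches and 1 TGACGTCA at bases 50 to 57 before the start. No match to any of the 5 motifs lay in the ATP5MC2 stretch shown, but the stretches before its other 2 starts each held 1 CCAAT match, at bases 119 to 123 and 161 to 165. The NDUFA8 and NDUFS7 stretches held no match. Windows that also take in the 50 bases after the start, not printed here, held 2 NRF1 matches for NDUFA8. Such windows held 1 YY1 match each for NDUFS7 and NDUFS3, and the counts by motif below use them. NDUFS3 had 2 ETS matches, at bases 96 to 102 and 77 to 83 before the start, NDUFA3 had 2 NRF1 matches, at 161 to 170 and 64 to 73, and NDUFA1 had 1 ETS match, at 41 to 47.

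Of the measured members, 67 matched a promoter entry by gene ID, with 81 windows of 250 bases before and 50 after a start. The NRF1 letters were in 19.8% of those windows, against 5.78% of all 35116 windows listed. For ETS the shares were 24.7% of member windows and 10.3% of all, and for YY1 19.8% and 3.19%. CCAAT was in 32.1% of member windows and 34.6% of all, and TGACGTCA in 4.94% and 1.85%. CCAAT and TGACGTCA were added to the search after the ATP5MC1 sequence was read, overlapping matches were counted, and a match is a description of the sequence only. Calls were counted by motif in the 3 comparisons with control, with no test. With Wee1 inhibitor II, where 10.3% of all genes fell, the lower calls were 4 of 16 members with an NRF1 match and 11 of 51 without one. They were 4 of 19 with an ETS match and 11 of 48 without, 6 of 14 with a YY1 match and 9 of 53 without, 5 of 23 with CCAAT and 10 of 44 without, and 2 of 4 with TGACGTCA and 13 of 63 without. Of the same 14 genes with a YY1 match, 5 rose and 1 fell with 17-AAG and 3 rose and 1 fell with both drugs. Of the 53 without one, 6 rose with 17-AAG, and 15 rose and 2 fell with both drugs. Of all genes 9.93% and 16.7% rose. Rises in these 2 comparisons were 4 and 2 of 16 with an NRF1 match, and 7 and 16 of 51 without. They were 2 and 5 of 19 with ETS, and 9 and 13 of 48 without. For CCAAT they were 2 and 6 of 23, and 9 and 12 of 44 without. With TGACGTCA they were 0 and 1 of 4, and 11 and 17 of 63 without.

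The members were bright genes with little spread. On the 11 arrays, 70 of the 78 had a group mean signal of at least 100, with signals from 661 to 9548, and 68 had one of at least 1000. The other 8 had signals of 0.860 to 63.6 on every array. They were COX4I2, COX6A2, COX6B2, COX7A1, COX7B2, COX8C and COXFA4L2 (NDUFA4L2), isoforms best known from lung, muscle, testis or hypoxic cells, and ATP5MF. ATP5MF codes for subunit f of ATP synthase, which is found in most tissues. It was read by 1 probe set, with a mean signal of 4.73, while another probe set carries several symbols and was left out, so whether the low value is that of the gene or of the probe set was not tested. Each isoform's common counterpart (COX4I1, COX6A1, COX6B1, COX7A2, COX7B, COX8A and COXFA4, which is NDUFA4) was among the bright members. No dim member was called in any of the 7 comparisons.

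Averaged over the 70 bright members, the log2 signal per array was 11.45, 11.47 and 11.50 with Wee1 inhibitor II, 11.69, 11.80 and 11.70 with 17-AAG, 11.71, 11.71 and 11.72 with both drugs, and 11.52 and 11.60 on the control arrays. The Wee1 inhibitor II arrays were the lowest, the control arrays lay between, and the 17-AAG and both-drug arrays overlapped above them. These averages are a description, with no test.

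**Figure D1:**
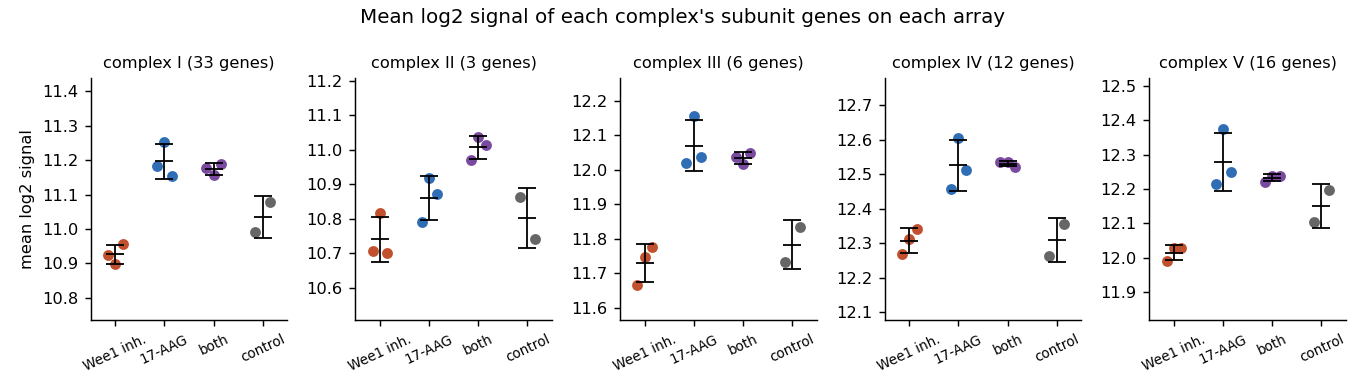
Mean log2 signal (y axis, a range of its own in each panel) of the bright members of each complex in the 4 groups (x axis), with a point per array and bars for the mean ± SD. For the 33 genes of complex I the means were 10.93 ± 0.03 with Wee1 inhibitor II, 11.20 ± 0.05 with 17-AAG, 11.17 ± 0.02 with both drugs (SD, n = 3 each) and 11.04 ± 0.06 on the control arrays (n = 2), and both groups with 17-AAG also lay above control in complexes III, IV and V.

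Wee1 inhibitor II against control asked what the inhibitor did without 17-AAG. Of the 78 members 16 fell and 5 rose, which is 26.9% called, where 24.9% of all genes were called (14.5% higher and 10.3% lower). The share is close to that of all genes, and it lies below the 52.8% called among the 2450 genes with a group mean signal of at least 1000, of which 30.9% of the 68 members that bright were called. The lower calls were 8 of 33 genes of complex I, none of 3 of complex II (no limma call, and none at an unadjusted p under 0.05), 2 of 6 of complex III, 2 of 19 of complex IV and 4 of 17 of complex V. One rise each was in complexes I, III and IV, and 2 were in complex V. The median log2 fold change of the members was -0.06, beside 0.12 for all genes. Of the 9 pigment cell markers 5 fell and 2 rose, and the ACTB probe sets at the 3′ and 5′ ends of the transcript differed by 0.68 ± 0.09 (log2, SD, n = 3) with Wee1 inhibitor II and 0.69 ± 0.03 (n = 2) in control. For GAPDH the 3′ minus 5′ difference was -0.05 ± 0.04 with Wee1 inhibitor II and -0.063 ± 0.004 in control. The part of the pigment markers in the result was not tested.

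**Figure D2:**
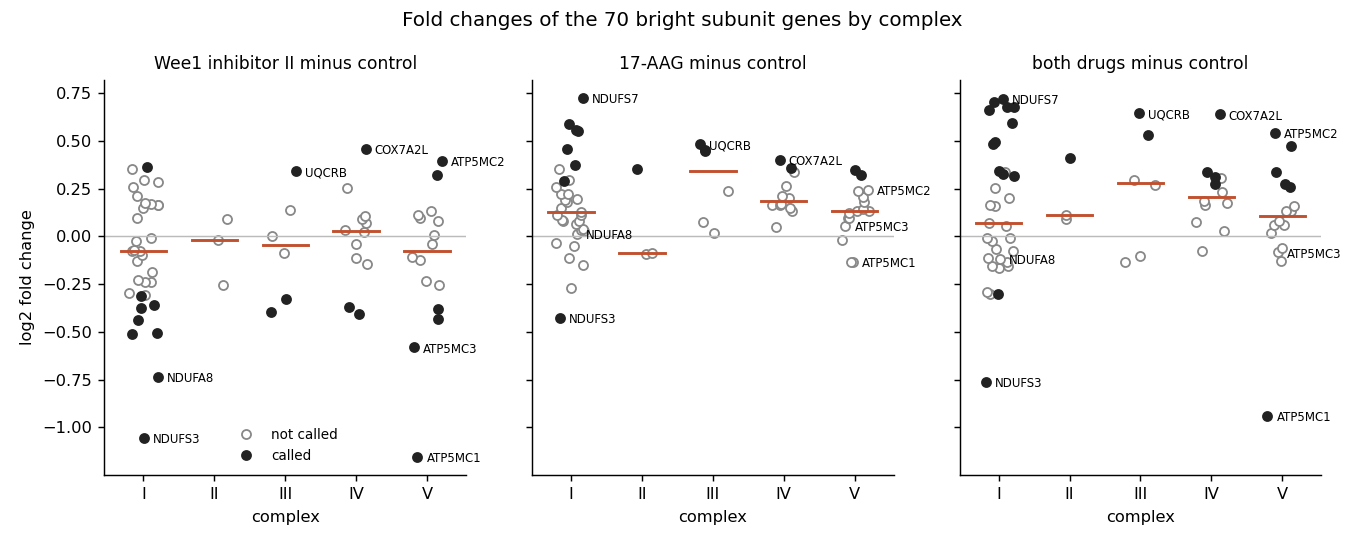
Log2 fold change (y axis) of the 70 bright members against control, by complex (x axis), in a panel for Wee1 inhibitor II, 17-AAG and both drugs. Each circle is a gene, filled where it was called at an adjusted p under 0.05, and the line is the median of the bright members of that complex. ATP5MC1 at -1.15 and NDUFS3 at -1.05 are the lowest circles with Wee1 inhibitor II, and NDUFS7 at 0.73 is the highest with 17-AAG.

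In complex V, the 3 genes for subunit c moved apart. They differ in the targeting sequence that is cut off on import and give the same mature c subunit. ATP5MC1 had signals of 926, 885 and 799 with Wee1 inhibitor II, 1689, 2024 and 1599 with 17-AAG, 1064, 968 and 996 with both drugs, and 1850 and 2018 on the control arrays. Every array with Wee1 inhibitor II, alone or with 17-AAG, lay below every array without it. The log2 fold change against control was -1.15 ± 0.12 (SE, n = 3 and 2, adjusted p = 0.00043 in limma) with Wee1 inhibitor II and -0.94 ± 0.12 (adjusted p = 0.000769) with both drugs, and it was -0.13 ± 0.12 (adjusted p = 0.555) with 17-AAG.

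ATP5MC2 had signals of 3995, 3732 and 3993 with Wee1 inhibitor II, 3584, 3572 and 3383 with 17-AAG, 4145, 4339 and 4485 with both drugs, and 2786 and 3152 on the control arrays. All treated arrays were above both control arrays. It rose by 0.40 ± 0.09 with Wee1 inhibitor II (adjusted p = 0.0118) and by 0.54 ± 0.09 with both drugs (adjusted p = 0.00215), and the difference with 17-AAG was 0.24 ± 0.09 (adjusted p = 0.101, limma). Without control replicate 1 the ATP5MC2 difference for Wee1 inhibitor II was 0.31 with an adjusted p of 0.0915. With each array centred on its median the values for Wee1 inhibitor II and both drugs were 0.17 and 0.35 (adjusted p = 0.41 and 0.0815), and with averaged probe sets 0.29 and 0.18 (adjusted p = 0.739 and 0.847).

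ATP5MC3 had signals of 3579, 3941 and 3882 with Wee1 inhibitor II, 5388, 6568 and 5806 with 17-AAG, 5018, 5601 and 5487 with both drugs, and 5491 and 5868 on the control arrays. Only the arrays with Wee1 inhibitor II alone stood apart, below all 8 others. Against control it fell by 0.58 on the log2 scale, with an SE of 0.11 (adjusted p = 0.00559, limma), and the difference was -0.08 ± 0.11 (adjusted p = 0.66) with both drugs. Its 3 probe sets gave -0.58, -0.60 and -1.41 for Wee1 inhibitor II.

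The other parts of ATP synthase moved less. ATP5F1C, the gamma subunit of the rotor, fell by 0.38 and ATP5PF, which codes for the coupling factor of the peripheral stalk, fell by 0.43 with Wee1 inhibitor II (SE 0.08 each, adjusted p = 0.0101 and 0.00668). ATP5PD, another subunit of that stalk, rose by 0.32 ± 0.07 (adjusted p = 0.0148, and 0.0998 without control replicate 1). None of the 5 measured genes for the small membrane subunits was called in limma, and 1, ATP5ME, had an unadjusted p under 0.05 (-0.26, adjusted p = 0.0985). Those values come from the brightest probe set of each gene, and other probe sets were lower with Wee1 inhibitor II. One for ATP5MJ, with a mean signal of 1719, gave -0.53, and one for ATP5MG, with a mean signal of 309.8, gave -0.78 (adjusted p = 0.00577 and 0.00588 over all probe sets), where the brightest gave -0.04 and 0.08.

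In complex I, 3 of 5 measured core subunits fell. NDUFS3, a core subunit of the arm that reaches into the matrix, had signals of 1454, 1457 and 1577 with Wee1 inhibitor II, 2337, 2332 and 2256 with 17-AAG, 1894, 1838 and 1757 with both drugs, and 2950 and 3260 on the control arrays. The 4 groups did not overlap, and all treated groups lay below control. Its log2 fold changes against control were -1.05 ± 0.08 with Wee1 inhibitor II, -0.43 ± 0.08 with 17-AAG and -0.76 ± 0.08 with both drugs (adjusted p = 0.000137, 0.0111 and 0.000327 in limma). Without control replicate 3 the 17-AAG difference was -0.35 with an adjusted p of 0.0827. NDUFS1, the largest iron-sulphur subunit, fell by 0.36 ± 0.07 and NDUFV2, an iron-sulphur subunit beside the NADH site, by 0.31 ± 0.10 (adjusted p = 0.00777 and 0.0478) with Wee1 inhibitor II.

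NDUFA8, an accessory subunit on the side of the intermembrane space, had signals of 851, 845 and 958 with Wee1 inhibitor II, 1550, 1524 and 1390 with 17-AAG, 1416, 1321 and 1331 with both drugs, and 1433 and 1509 on the control arrays. It was low only where Wee1 inhibitor II was given alone, and the 17-AAG arrays overlapped both other groups. The log2 fold change against control was -0.74 ± 0.09 with Wee1 inhibitor II (adjusted p = 0.000987) and -0.12 ± 0.09 with both drugs (adjusted p = 0.432, limma). NDUFB4 of the membrane arm and NDUFA6 of the matrix arm fell by 0.50 ± 0.08 and 0.51 ± 0.12 (adjusted p = 0.00227 and 0.0178). With averaged probe sets the NDUFB4 value was -0.15 (adjusted p = 0.565, limma). The NDUFA6 call was lost without control replicate 3 (-0.43, adjusted p = 0.121). NDUFS4, an accessory subunit of the matrix arm, rose by 0.37 ± 0.09 (adjusted p = 0.018). That call was lost under 8 of 21 alternatives, leaving out either control array among them (0.38 and 0.35). With averaged probe sets the NDUFS4 value was 1.11 (adjusted p = 0.371, limma).

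**Figure D3:**
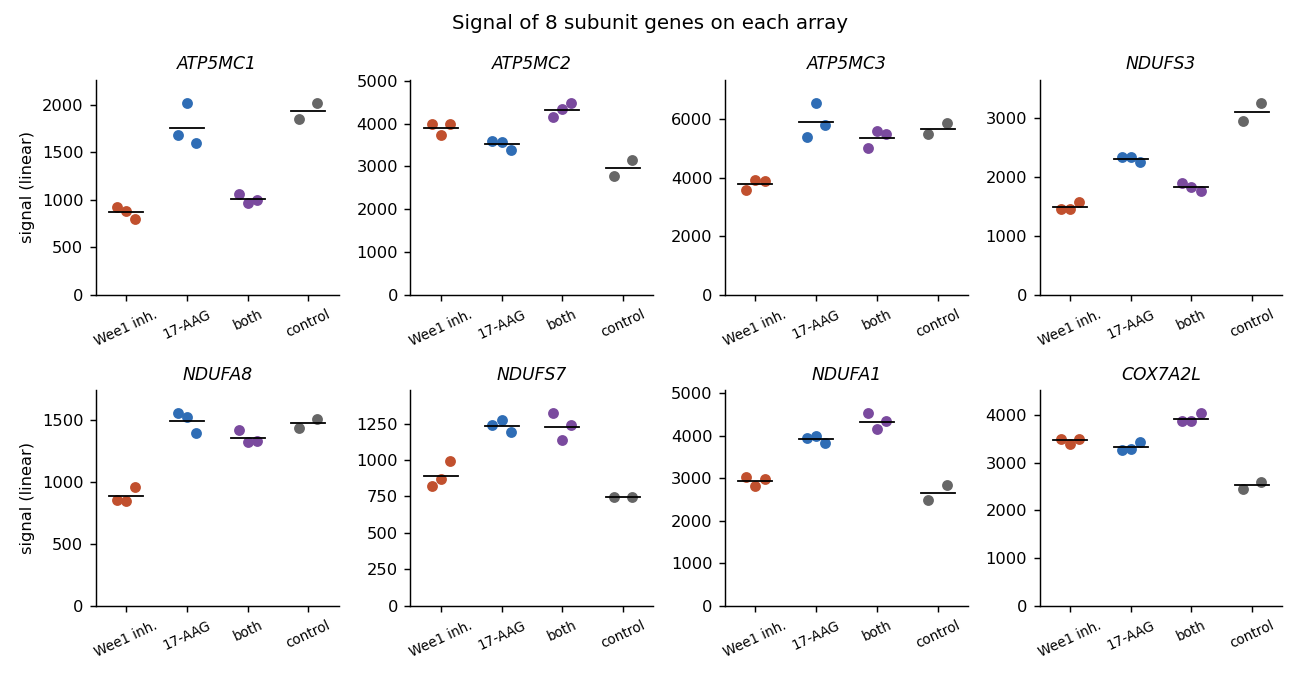
Signal on the linear scale (y axis, from 0) of 8 members on each array, with the groups on the x axis, a point per array and a line at the group's geometric mean. ATP5MC1 is low in both groups that received Wee1 inhibitor II, whereas ATP5MC3 and NDUFA8 are low in the Wee1 inhibitor II group alone, and NDUFS7 and NDUFA1 are high in both groups that received 17-AAG.

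In complexes III and IV the calls with Wee1 inhibitor II went both ways. COX7A2L, related to COX7A subunits and known as a factor that links complexes III and IV in supercomplexes, had signals of 3499, 3404 and 3512 with Wee1 inhibitor II, 3278, 3294 and 3443 with 17-AAG, 3876, 3887 and 4039 with both drugs, and 2455 and 2598 on the control arrays. All treated arrays were above the control arrays, with both drugs the highest. It rose by 0.46 ± 0.07 with Wee1 inhibitor II, 0.40 ± 0.07 with 17-AAG and 0.64 ± 0.07 with both drugs (adjusted p = 0.00259, 0.00803 and 0.00038, limma), and without control replicate 1 the value for 17-AAG was 0.36 (adjusted p = 0.0606). COX5A, a subunit on the matrix side of complex IV, and the small membrane subunit COX7B fell by 0.37 ± 0.08 and 0.40 ± 0.10 with Wee1 inhibitor II (adjusted p = 0.0138 and 0.0209). UQCRB rose by 0.34 ± 0.10, while UQCRQ and UQCR10 fell by 0.33 ± 0.10 and 0.40 ± 0.12 (adjusted p = 0.0454, 0.04 and 0.046), all small subunits of complex III. The calls of COX7B, UQCRB and UQCRQ were lost under 6, 16 and 13 of 21 alternatives, leaving out either control array among them. For UQCRB and UQCRQ, leaving out single 17-AAG or both-drug arrays, which are not in this comparison, also removed the call. Without control replicates 1 and 3 the values were -0.45 and -0.36 for COX7B and 0.23 and 0.45 for UQCRB. For UQCRQ they were -0.41 and -0.24.

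Counts for Wee1 inhibitor II depended on the scale. With each array centred on its median, 25 members fell and none rose, so the rises of ATP5MC2, ATP5PD, COX7A2L, NDUFS4 and UQCRB above are relative to the deposited scale, on which the median of all genes lay at 0.12. Without control replicate 3 there were 10 calls, 6 lower and 4 higher.

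The arrays labelled 17-AAG, set against control, addressed the Hsp90 inhibitor on its own. Here 15 members rose and 1 fell, which is 20.5% called, beside 16.7% of all genes (9.93% higher and 6.8% lower). By complex, 7 of 33 genes of complex I, 1 of 3 of complex II, 3 of 6 of complex III, 2 of 19 of complex IV and 2 of 17 of complex V rose, and NDUFS3 was the gene that fell. Of the members with a group mean of at least 1000, 23.5% were called, less than the 36% of all genes that bright (18.5% higher and 17.4% lower). The members' median was 0.15, beside 0.01 for all genes. Pigment cell markers moved in the same arrays, with 7 of 9 rising, and the ACTB end difference was 0.96 ± 0.08 (log2, SD, n = 3) with 17-AAG, against the 0.69 in control. The GAPDH end difference was -0.04 ± 0.04 with 17-AAG, against -0.06 in control. The part of these markers and end differences in the result was not tested. The heat shock genes looked at, of a kind that Hsp90 inhibitors are known to raise, were not called higher with 17-AAG. DNAJB1 had signals of 480, 564 and 490 with 17-AAG and 1197 and 1186 in control. Its log2 fold change was -1.22 ± 0.09 (adjusted p = 0.000375, limma), and that of HSPH1 was -0.763 ± 0.125 (adjusted p = 0.00544). HSPB1, HSP90AA1 and HSPA4L were not called, at 0.075, -0.097 and 0.156 (adjusted p = 0.714, 0.63 and 0.565, limma). DNAJB1 was chosen with its values known. Whether arrays labelled 17-AAG and control were swapped was not tested, and a swap would turn the signs of this comparison. It would also exchange the values of Wee1 inhibitor II against control with those against 17-AAG, exchange those of both drugs in the same way, and change the interaction, so all these results are given by the labels.

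NDUFS7, a core subunit with the iron-sulphur cluster next to the ubiquinone site, had signals of 826, 868 and 994 with Wee1 inhibitor II, 1240, 1274 and 1195 with 17-AAG, 1321, 1136 and 1244 with both drugs, and 749 and 745 on the control arrays. The arrays with 17-AAG, alone or with Wee1 inhibitor II, were above all others. It rose by 0.73 ± 0.10 with 17-AAG and 0.72 ± 0.10 with both drugs (adjusted p = 0.00353 and 0.00137), and differed by 0.26 ± 0.10 with Wee1 inhibitor II (adjusted p = 0.12, limma). A second, dim NDUFS7 probe set with a mean signal of 21.9 gave -0.14 and -0.84 for 17-AAG and both drugs.

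NDUFA1, an accessory subunit of the membrane arm, had signals of 3024, 2816 and 2991 with Wee1 inhibitor II, 3937, 3984 and 3822 with 17-AAG, 4526, 4151 and 4342 with both drugs, and 2476 and 2848 on the control arrays. As with NDUFS7, both groups with 17-AAG lay above both groups without it. The rises were 0.56 ± 0.09 with 17-AAG and 0.71 ± 0.09 with both drugs (adjusted p = 0.00496 and 0.000646, limma). NDUFA3, another small accessory subunit of the membrane arm, had signals of 1202, 1284 and 1143 with 17-AAG and 803 and 804 in control, a rise of 0.59 ± 0.11 (adjusted p = 0.0105). That call was lost without control replicate 1 or 3 (adjusted p = 0.0617 and 0.0602). NDUFS4 rose by 0.55 ± 0.09, and NDUFB8, of the membrane arm, by 0.46 ± 0.12 (adjusted p = 0.00521 and 0.0357). With averaged probe sets the NDUFS4 value was 0.14 (adjusted p = 0.943, limma). The NDUFB8 call was lost under 14 of 21 alternatives, among them leaving out single arrays of each treated group. Without control replicate 1 the NDUFB8 value was 0.26.

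In complex III the core proteins UQCRC1 and UQCRC2, which face the matrix, both rose. UQCRC2 had signals of 4007, 4072 and 4068 with 17-AAG and 2878 and 3058 in control, a rise of 0.45 ± 0.07 (adjusted p = 0.00537). Another bright UQCRC2 probe set gave 0.47 and a dim one, with a mean signal of 41.0, gave -1.14. UQCRC1 rose by 0.45 ± 0.10 and UQCRB by 0.48 ± 0.10 (adjusted p = 0.0183 and 0.0158), UQCRB with 0.38 and an adjusted p of 0.113 without control replicate 1. SDHA, the flavoprotein of complex II, had signals of 1584, 1703 and 1616 with 17-AAG and 1272 and 1282 in control, and rose by 0.36 ± 0.08 (adjusted p = 0.0152), a call lost without control replicate 1 or 3 (adjusted p = 0.0817 and 0.0738). SDHC and SDHD, its membrane anchors, differed by -0.09 ± 0.11 and -0.09 ± 0.12 (adjusted p = 0.689 and 0.684). ATP5F1D of the ATP synthase central stalk rose by 0.35 ± 0.08 (adjusted p = 0.0156), a call lost without either control array (adjusted p = 0.0831 and 0.0749).

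Both control arrays carried the 17-AAG count. Without control replicate 1 there were 6 calls, 5 higher and 1 lower, and without control replicate 3 there were 9, all higher. In a fit of only the 17-AAG and control arrays no member was called, with 17 at an unadjusted p under 0.05, and no gene of all those tested was called in that fit.

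Both drugs against control used the same 2 control arrays. Of the 78 members 23 rose and 3 fell, which is 33.3% called, beside 28% of all genes (16.7% higher and 11.3% lower). The rises were 11 of 33 genes in complex I, 1 of 3 in complex II, 2 of 6 in complex III, 4 of 19 in complex IV and 5 of 17 in complex V, and the falls were NDUFS3, NDUFC1 and ATP5MC1. NDUFC1 fell by 0.30 ± 0.09 (adjusted p = 0.0414, limma). That call was lost under 11 of 21 alternatives, leaving out single Wee1 inhibitor II or 17-AAG arrays among them. With control replicate 2 included the NDUFC1 value was 0.014. Of the members with a group mean of at least 1000, 36.8% were called, less than the 55.2% of all genes that bright (25.4% higher and 29.8% lower). The members' median was 0.16, beside 0.11 for all genes. Pigment cell markers rose in 9 of 9 cases here, and the ACTB end difference was 0.96 ± 0.05 (log2, SD, n = 3). The GAPDH end difference was -0.01 ± 0.02 with both drugs and -0.06 in control. The part of these markers and end differences in the result was not tested.

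The largest rises beside NDUFS7 and NDUFA1 were in complexes I and III. NDUFA3 had signals of 1294, 1230 and 1338 with both drugs and 803 and 804 in control, and rose by 0.68 ± 0.11 (adjusted p = 0.0027). NDUFS4 rose by 0.68 ± 0.09 and UQCRB by 0.65 ± 0.10 (adjusted p = 0.000777 and 0.00213), and a second UQCRB probe set, with a mean signal of 290.0, gave 0.27. With averaged probe sets the NDUFS4 value was 0.32 (adjusted p = 0.831, limma). NDUFA7 of the matrix arm rose by 0.66 ± 0.16 (adjusted p = 0.0139, and 0.11 without control replicate 1). SDHC had signals of 2332, 2577 and 2640 with both drugs and 1966 and 1816 in control and rose by 0.41 ± 0.11 (adjusted p = 0.0226). That call was lost under 8 of 21 alternatives, leaving out either control array among them. The SDHC value was 0.47 without control replicate 1 and 0.35 without control replicate 3. UQCRC2 rose by 0.53 ± 0.07 (adjusted p = 0.000996). The brightest members of complexes IV and V, the zinc-binding COX5B and the epsilon subunit ATP5F1E, rose by 0.31 ± 0.08 and 0.26 ± 0.07 (adjusted p = 0.0168 and 0.034). The COX5B call was lost under 8 of 21 alternatives and the ATP5F1E call under 13, leaving out either control array among them. For ATP5F1E, leaving out a single Wee1 inhibitor II or 17-AAG array also removed the call. The 2 values were 0.29 and 0.26 without control replicate 1 and 0.335 and 0.25 without control replicate 3.

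The direction of this comparison also depended on the scale. With each array centred on its median, 5 members rose and 5 fell. There were 16 calls without control replicate 1 (13 higher, 3 lower) and 15 without control replicate 3 (13 higher, 2 lower).

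**Figure D4:**
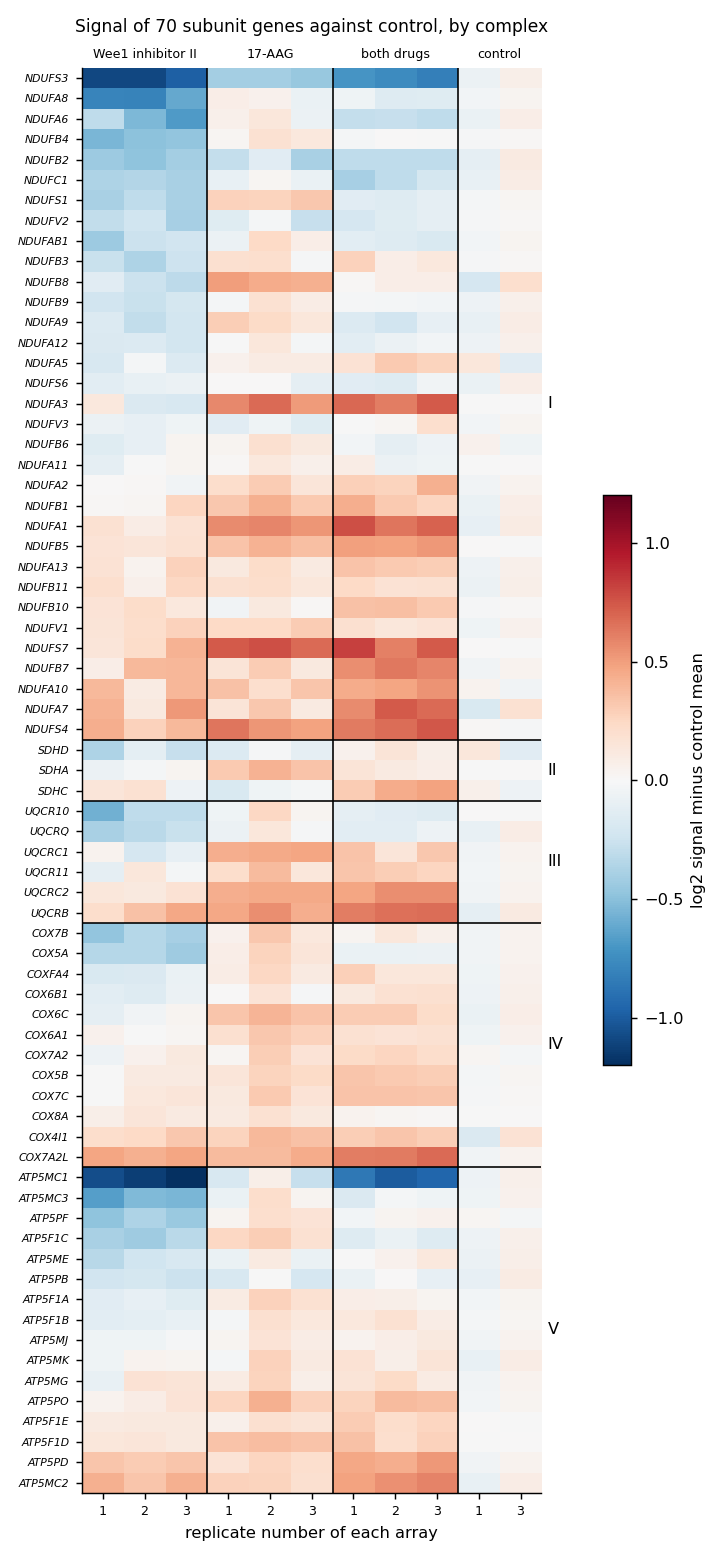
Log2 signal minus the mean of the 2 control arrays (colour) for the 70 bright members (rows, ordered by complex I to V) on the 11 arrays (columns, in the order Wee1 inhibitor II, 17-AAG, both drugs, control). The columns with 17-AAG, alone or combined, are mostly above control, whereas NDUFS3 is below control on all treated arrays and ATP5MC1 on the Wee1 inhibitor II and both-drug arrays.

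The remaining comparisons set treated groups against each other. Between both drugs and Wee1 inhibitor II alone, 21 members rose and none fell (1 lower at an unadjusted p under 0.05, limma), which is 26.9% called, beside 14.1% of all genes (7.27% higher and 6.84% lower). Among members with a group mean of at least 1000, 30.9% were called, close to the 32.4% of all genes that bright. All of the members' calls were higher, beside 16.2% of those genes called higher and 16.1% lower. They were 11 of 33 genes of complex I, 2 of 6 of complex III, 5 of 19 of complex IV and 3 of 17 of complex V, and the members' median was 0.22 beside 0.00 for all genes. NDUFA3 rose by 0.76 ± 0.10, NDUFA8 by 0.62 ± 0.08 and NDUFA1 by 0.56 ± 0.08 (adjusted p = 0.00188, 0.00192 and 0.00243). ATP5MC3 rose by 0.50 ± 0.10 (adjusted p = 0.0106), whereas ATP5MC1 differed by 0.21 ± 0.11 (adjusted p = 0.272). The count was 12 without any 1 of the 3 Wee1 inhibitor II arrays, and 10, 13 and 11 without both-drug replicates 1, 2 and 3, and every call in those fits was higher. In the same comparison 5 of 9 pigment cell markers rose and 1 fell, and the ACTB end difference was 0.96 ± 0.05 with both drugs and 0.68 ± 0.09 with Wee1 inhibitor II (log2, SD, n = 3 each). For GAPDH the values were -0.01 ± 0.02 and -0.05 ± 0.04. The part of these markers and end differences in the result was not tested.

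Wee1 inhibitor II alone against 17-AAG alone gave 30 lower members and none higher (none higher at an unadjusted p under 0.05 either), which is 38.5% called, beside 18.7% of all genes (10.2% higher and 8.52% lower). Of the members with a group mean of at least 1000, 44.1% were called, close to the 41.1% of all genes that bright. All of the members' calls were lower, beside 23.1% of those genes called lower and 18% higher. The lower calls were 15 of 33 genes of complex I, 1 of 3 of complex II, 4 of 6 of complex III, 5 of 19 of complex IV and 5 of 17 of complex V. ATP5MC1 fell by 1.02 ± 0.11, NDUFA8 by 0.75 ± 0.08 and NDUFB8 by 0.69 ± 0.11 (adjusted p = 0.000539, 0.000644 and 0.00312). NDUFB8 had signals of 2448, 2253 and 2160 with Wee1 inhibitor II and 3809, 3663 and 3624 with 17-AAG, with no overlap. Leaving out any 1 array left 21 to 28 calls. Here 5 of 9 pigment cell markers fell and 1 rose, and the ACTB end difference was 0.68 ± 0.09 with Wee1 inhibitor II and 0.96 ± 0.08 with 17-AAG (log2, SD, n = 3 each). For GAPDH the values were -0.05 ± 0.04 and -0.04 ± 0.04. The part of these markers and end differences in the result was not tested.

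Both drugs against 17-AAG alone gave 6 higher and 7 lower members, 16.7% called, beside 19.3% of all genes (10.9% higher and 8.43% lower). Of the members with a group mean of at least 1000, 19.1% were called, beside 39.6% of all genes that bright. Of the 9 pigment cell markers 2 rose and none fell (1 more had an unadjusted p under 0.05, limma), and their part in the result was not tested. ATP5MC1 fell by 0.81 ± 0.11, NDUFS1 by 0.42 ± 0.06 and NDUFB8 by 0.40 ± 0.11 (adjusted p = 0.00179, 0.00304 and 0.035). SDHC rose by 0.50 ± 0.10, and NDUFB7 and NDUFB10, both of the membrane arm, by 0.41 ± 0.10 and 0.31 ± 0.07 (adjusted p = 0.00918, 0.0289 and 0.0166). The calls of NDUFB7, NDUFB8 and NDUFB10 were lost without several single arrays, 17-AAG replicate 1 and both-drug replicate 1 among them (adjusted p = 0.0543 to 0.102). The count was 4 without 17-AAG replicate 1, 6 without 17-AAG replicate 3, and 6, 5 and 6 without both-drug replicates 1, 2 and 3. With each array centred on its median 13 members fell and none rose, and with quantile normalisation 14 fell and 6 rose.

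The interaction asks whether the log2 change with 17-AAG differs between cells with and without Wee1 inhibitor II. In limma 2 members were called, both higher, which is 2.56% beside 11.8% of all genes (4.82% higher and 6.97% lower), and 13 members had an unadjusted p under 0.05. Of the members with a group mean of at least 1000, 2.94% were called, beside 26.6% of all genes that bright. Of the 9 pigment cell markers 4 were higher and 1 lower. For NDUFS3 the interaction was 0.72 ± 0.11 (adjusted p = 0.00646): the log2 difference was 0.29 ± 0.08 between both drugs and Wee1 inhibitor II, against -0.43 ± 0.08 between 17-AAG and control. For NDUFA8 it was 0.60 ± 0.13 (adjusted p = 0.0199), from 0.62 ± 0.08 with Wee1 inhibitor II present against 0.01 ± 0.09 without it. The NDUFA8 call was lost without control replicate 1, control replicate 3 or both-drug replicate 1 (0.64, 0.56 and 0.57, adjusted p = 0.0528, 0.0747 and 0.0504), which left 1 member called in each of those fits. It was also lost with the replicate block and with each array centred on its median (adjusted p = 0.0647 and 0.108). Without 17-AAG replicate 2 there were 4.

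Of the regulators of these genes, PPARGC1A had the widest range. Its signals were 52.1, 55.2 and 59.6 with Wee1 inhibitor II, 698, 658 and 722 with 17-AAG, 321, 388 and 350 with both drugs, and 331 and 311 on the control arrays. The lowest group was Wee1 inhibitor II alone, 17-AAG alone was the highest, and both drugs lay near control. Against control it fell by 2.53 ± 0.11 with Wee1 inhibitor II and rose by 1.11 ± 0.11 with 17-AAG (adjusted p = 1.44e-05 and 0.000752), and the difference with both drugs was 0.13 ± 0.11 (adjusted p = 0.431). When the probe sets of a gene were averaged, the values were -1.79 and -0.02 (adjusted p = 0.133 and 0.993).

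The regulators ESRRA, TFAM and TFB1M were below control with Wee1 inhibitor II. ESRRA had signals of 236, 220 and 230 with Wee1 inhibitor II, 325, 323 and 418 with 17-AAG, 298, 285 and 299 with both drugs, and 411 and 448 on the control arrays. It fell by 0.91 ± 0.12 with Wee1 inhibitor II and by 0.55 ± 0.12 with both drugs (adjusted p = 0.00128 and 0.0111). TFAM, which packages and transcribes mitochondrial DNA, fell by 0.72 ± 0.10, 0.36 ± 0.10 and 0.47 ± 0.10 with Wee1 inhibitor II, 17-AAG and both drugs (adjusted p = 0.00145, 0.042 and 0.0087). The TFAM call for 17-AAG was lost without any 1 of 9 of the 11 arrays, and those of ESRRA and TFAM for both drugs without control replicate 3 (adjusted p = 0.0799 and 0.0612). TFB1M, a methyltransferase of mitochondrial ribosomal RNA, fell by 0.36 ± 0.09 with Wee1 inhibitor II and by 0.88 ± 0.09 with both drugs (adjusted p = 0.0185 and 0.000224), the first lost without either control array (adjusted p = 0.0745 and 0.0956). Over the 15 regulators, 1 rose and 4 fell with Wee1 inhibitor II, 2 rose and 2 fell with 17-AAG, and 5 fell with both drugs. Of all genes 24.9%, 16.7% and 28% were called in that order, and nothing particular to the regulators is read from their counts. NRF1, GABPA and YY1, whose motifs were counted above (ETS for GABPA), were not called against control in any of the 3 treated groups. YY1 had signals of 2056, 2104 and 2153 with 17-AAG and 2680 and 2525 in control, with no overlap, and a log2 difference of -0.31 ± 0.10 (adjusted p = 0.0721, limma). NRF1 differed by -0.29 ± 0.10 with both drugs (adjusted p = 0.0685).

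**Figure D5:**
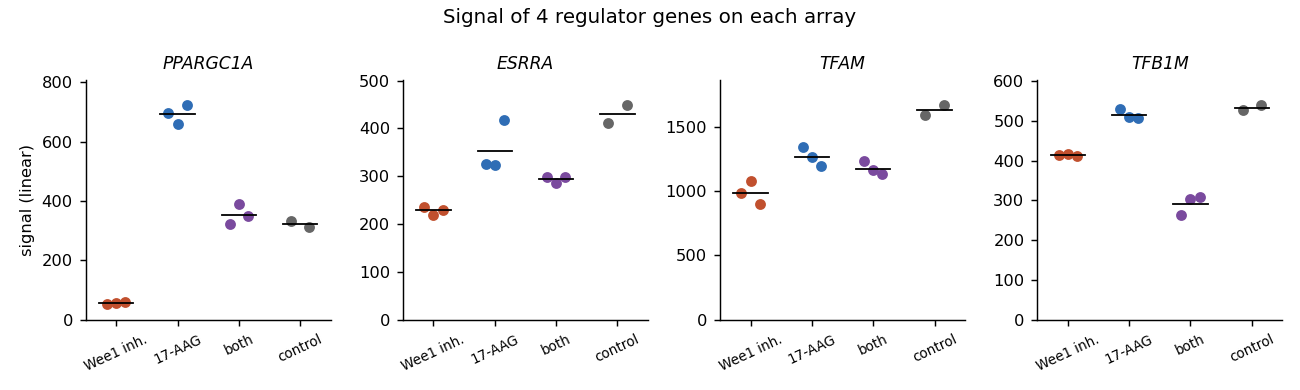
Signal on the linear scale (y axis, from 0) of PPARGC1A, ESRRA, TFAM and TFB1M on each array, with the groups on the x axis and a line at the geometric mean. PPARGC1A lies at 52.1 to 59.6 with Wee1 inhibitor II and at 658 to 722 with 17-AAG, whereas the other 3 genes are highest or near highest on the control arrays.

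Assembly factors and other mitochondrial genes were counted beside the subunits. Over all genes, 14.5% rose and 10.3% fell with Wee1 inhibitor II, 9.93% and 6.8% with 17-AAG, and 16.7% and 11.3% with both drugs. Of the genes with a group mean of at least 1000, 23.5% rose and 29.3% fell, 18.5% and 17.4%, and 25.4% and 29.8% in the same order. The lists below were not matched on brightness, and nothing particular to them is read from their counts. Of 14 complex I assembly factors, 1 rose and 7 fell with Wee1 inhibitor II, 2 rose and 2 fell with 17-AAG, and 1 rose and 6 fell with both drugs, with medians of -0.28, -0.11 and -0.16. NDUFAF4 had signals of 842, 864 and 804 with Wee1 inhibitor II, 1269, 1427 and 1201 with 17-AAG, 1077, 1100 and 1055 with both drugs, and 1791 and 1636 on the control arrays, so all treated arrays were below control. It fell by 1.03 ± 0.10 with Wee1 inhibitor II (adjusted p = 0.000249). Of 24 complex IV assembly factors, 3 rose and 6 fell with Wee1 inhibitor II, 2 rose and 2 fell with 17-AAG, and 4 rose and 6 fell with both drugs. COA6, which works in copper delivery, had signals of 646, 637 and 643 with Wee1 inhibitor II, 851, 883 and 825 with 17-AAG, 581, 659 and 635 with both drugs, and 1363 and 1494 on the control arrays. Its fall was 1.15 ± 0.09 with Wee1 inhibitor II and 1.19 ± 0.09 with both drugs (adjusted p = 0.000103 and 5.16e-05). COX19, another copper assembly factor, rose by 1.43 ± 0.20 and 1.72 ± 0.20 in the same comparisons (adjusted p = 0.0016 and 0.000447), at signals of 98.5 to 120 and 117 to 146 against 34.7 to 46.9 in control.

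Of 16 genes of the citric acid cycle and pyruvate dehydrogenase that were measured, 2 rose and 8 fell with Wee1 inhibitor II, 4 rose with 17-AAG, and 3 fell with both drugs. IDH3A, a catalytic subunit of isocitrate dehydrogenase, fell by 0.82 ± 0.09 with Wee1 inhibitor II and by 0.65 ± 0.09 with both drugs (adjusted p = 0.000497 and 0.00104). IDH2 rose by 0.69 ± 0.10 with 17-AAG (adjusted p = 0.0039). Of 16 import genes, 8, 4 and 7 fell and 1, 1 and 2 rose in the comparisons of Wee1 inhibitor II, 17-AAG and both drugs against control, and TIMM50, a receptor of the inner membrane, fell by 0.80 ± 0.11 with Wee1 inhibitor II (adjusted p = 0.00138). CYCS, the electron carrier cytochrome c, fell by 0.38 ± 0.08 with Wee1 inhibitor II (adjusted p = 0.0125), and CYC1 of complex III rose by 0.27 ± 0.08 with 17-AAG (adjusted p = 0.0429).

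The subunits encoded in mitochondrial DNA gave no calls. Of 13 such genes 7 were measured (listed as ND2, ND4, ND6, COX1, COX2, COX3 and ATP6). None passed the test in limma in any of the 7 comparisons, and none had an unadjusted p under 0.05 in the 3 comparisons with control. ND4 had signals of 13950, 12550 and 14750 with Wee1 inhibitor II, 10840, 13750 and 12990 with 17-AAG, 13410, 13310 and 12750 with both drugs, and 12540 and 12350 on the control arrays. Its 4 groups overlapped or lay close together. The medians of the 7 genes were 0.14, 0.00 and 0.08 for Wee1 inhibitor II, 17-AAG and both drugs, beside 0.12, 0.01 and 0.11 for all genes.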

How the data were processed

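RNA (100 ng per sample, per the labels' protocols) of 12 samples was labelled and measured on Affymetrix arrays. Each probe set has a deposited intensity per array. Partek 6.5 and RMA are named in the submitters' processing notes, and the order of steps is not given in the sources used here. The deposited values are not taken here as RMA output, because they are linear, share a trimmed mean and differ in their medians. The values are linear and scaled alike (each array's 2% trimmed mean is 150.02, and array medians span 17.66 to 23.09), so log2 was taken with no further normalisation. Any difference in total mRNA between groups is removed by such scaling.

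Of 54675 probe sets, 41091 carried 1 symbol, 1801 several, 11721 none and 62 were array controls. The brightest 1-symbol probe set over the 11 arrays stood for each of 19775 genes. Genes were tested with limma 3.58.1 (R 4.3.3) in 1 model with a mean per group (7 residual degrees of freedom, prior 1.12, prior SD 0.192), with Benjamini-Hochberg adjustment over all genes, with calls at an adjusted p under 0.05. The 7 comparisons set each treated group against control, the 3 pairs of treated groups, and the interaction. Errors of differences are standard errors on the log2 scale. The procedure was tested on simulated data.

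The control comparisons share 2 arrays and are not independent. Members, lists, tests and alternatives were chosen with earlier results of these data known. Genes were named by rule: per comparison with control the 6 largest called rises and falls with a signal of at least 100 and arrays that do not overlap (3 in the other comparisons), the brightest member and the smallest p of each complex, paralogs and complex II subunits. Other called members and list genes were named for their role after their values were seen. Alternatives were control replicate 2 included, the replicate number as a block, quantile normalisation, median centring, leaving out the dimmest 40% of genes, a floor of 32, averaged probe sets per gene, array weights, trended and robust empirical Bayes, only the arrays compared, and each array left out. Pearson's r of log2 signals was 0.935 to 0.956 among the 11 arrays and 0.836 to 0.846 between them and control replicate 2. The 15 pairs of samples with the same replicate number had deviations from their group means correlated at -0.137 to 0.096, so the numbers were not taken to pair the samples.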

Additional observations from a re-analysis of the deposited data

Results flagged for a closer look

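The log2 change between cells with and without 17-AAG differed by the presence of Wee1 inhibitor II for 2 members, by the interaction term in limma. For NDUFS3, a core subunit of complex I, the difference was 0.717 ± 0.112 (SE, adjusted p = 0.00646). For NDUFA8, an accessory subunit of complex I, it was 0.603 ± 0.126 (SE, adjusted p = 0.0199). The NDUFA8 value lost its call under 6 of 20 alternatives. The adjusted p-value was 0.176 with control replicate 2 included, an array unlike the others in its marker genes, and otherwise up to 0.108. The 2 members are 2.56% of 78, beside 11.8% of all genes called in this term.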

How the results depend on the processing

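Of 53 named calls, 6 kept direction and call under every alternative: ATP5MC1 for Wee1 inhibitor II against control and against 17-AAG, NDUFA8 in those 2 and between both drugs and Wee1 inhibitor II, and COX7A2L for both drugs against control. Over all 1111 alternatives of these calls, 896 kept the call, 210 lost it and 5 turned direction. These counts include the fits with control replicate 2, the array removed by the submitters. Its 9 measured pigment cell genes summed to 369, against 37340 to 38650 on the control arrays compared. Including it mixes unlike arrays in the control group, so a loss in those fits cannot decide whether a call holds. Some named calls were lost only when control replicate 2 was included. They were NDUFS3 for Wee1 inhibitor II and both drugs against control and in the interaction, and ATP5MC3 for Wee1 inhibitor II against control. So were ATP5MC1 for both drugs against control and against 17-AAG, and NDUFB8 for Wee1 inhibitor II against 17-AAG. The same held for NDUFA1 and NDUFA3 for both drugs against control and against Wee1 inhibitor II. With averaged probe sets per gene, UQCRC2 for 17-AAG against control was -0.073, NDUFS1 for both drugs against 17-AAG 0.344, and ATP5F1E and NDUFS7 for both drugs against control -0.144 and -0.057. Those means include dim probe sets. NDUFC1 for both drugs against control was 0.014 with control replicate 2 included.

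Counts of members called are given here for Wee1 inhibitor II, 17-AAG and both drugs against control, then both drugs against 17-AAG, both drugs against Wee1 inhibitor II, Wee1 inhibitor II against 17-AAG, and the interaction, where they were 21, 16, 26, 13, 21, 30 and 2 as reported. With control replicate 2 included they were 4, 1, 5, 0, 1, 5 and 0, and the counts of 0 had 5 and 2 at an unadjusted p under 0.05 in limma. Since that array differed in its marker genes, those counts cannot decide whether the reported calls hold. The replicate block gave 8 for both drugs against 17-AAG, 1 for the interaction and 11 for both drugs against Wee1 inhibitor II. It gave 18, 11, 18 and 27 for the other 4. Quantile normalisation gave 20 for both drugs against 17-AAG and 4 for the interaction. Median centring gave 6, 10, 11, 46 and 1 for 17-AAG, both drugs, both drugs against Wee1 inhibitor II, Wee1 inhibitor II against 17-AAG and the interaction. Without the dimmest 40% of genes there were 26 for 17-AAG, 9 for the interaction and 35 for both drugs against Wee1 inhibitor II. The floor of 32 gave 32 for Wee1 inhibitor II, 28 for 17-AAG, 10 (5 higher, 5 lower) for the interaction and 40 for both drugs against Wee1 inhibitor II. The mean of probe sets gave 11, 7, 14 and 7 for the first 4 comparisons. Trended and robust empirical Bayes gave 36, 30, 12 and 43 for Wee1 inhibitor II, 17-AAG, the interaction and both drugs against Wee1 inhibitor II. A fit of only the arrays compared, which has fewer arrays to estimate the spread, gave 5, 0, 14, 7, 9 and 16 for the first 6, with 17 at an unadjusted p under 0.05 for the count of 0. Leaving out 1 array at a time gave 10 to 20, 6 to 15, 15 to 26, 4 to 13, 10 to 21, 21 to 28 and 1 to 4. Apart from the fits with fewer arrays, the cause of these shifts was not tested. For the 8 dim members no difference was detectable at their low signal.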
